A study of Mus musculus with 24 samples.

Results

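Base excision and single-strand break repair was followed through 38 genes, all of which had a row among the 23420 gene symbols counted in each library. The genes were chosen by the function of their products, with earlier results of these data known. They comprised 11 DNA glycosylases, 2 AP endonucleases, 3 enzymes that clean blocked DNA ends, 3 factors of the short-patch branch, 4 poly(ADP-ribose) enzymes, 14 factors of the long-patch branch that replication also uses, and the chromatin protein gene Hmgb1. The study compared mouse Th2 cells and bone marrow-derived macrophages (BMDMs) that lacked TDG, or all of TET1, TET2 and TET3, with WT cells, to ask how these enzymes take part in DNA demethylation.

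All mice were C57BL/6 animals of 8 to 16 weeks. TDG iKO mice carried Tdg fl/fl and TET iTKO mice carried floxed Tet1, Tet2 and Tet3. In both, the deletion was made by a tamoxifen-activated Cre that was not limited to the cells studied. Cre-carrying and WT mice were both given tamoxifen. Th2 cells were grown from naïve CD4 T cells of spleen and lymph nodes with anti-CD3 and anti-CD28, IL-4 and anti-IFN-γ and were then expanded in IL-2. BMDMs were grown from bone marrow and were harvested untreated (0 h) or after 6 h with Kdo2-lipid A (KLA), an agonist of Toll-like receptor 4. There were 8 Th2 libraries, 4 TDG iKO and 4 WT, and 16 BMDM libraries. The BMDM libraries came from separate cohorts, called here the Tdg cohort, with TDG iKO, and the Tet cohort, with TET iTKO. Each cohort had its own WT, with 2 libraries for each genotype and time.

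In base excision repair a glycosylase removes a damaged or modified base, an AP endonuclease cuts the strand at the empty site, and the gap is filled and sealed. DNA polymerase beta, XRCC1 and DNA ligase 3 do this by replacing a single nucleotide, whereas the long-patch branch uses PCNA, the clamp loader RFC, polymerases delta and epsilon, the flap endonuclease FEN1 and DNA ligase 1. TDG links this pathway to DNA demethylation, because it excises the oxidised forms of 5-methylcytosine that TET enzymes make.

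The libraries held 4982950 to 26657729 counts assigned to genes (median 14853861). Levels are given as CPM, counts per 1000000 after scaling by the trimmed mean of M-values (TMM), and log2 fold changes are those of DESeq2. Replicates 3 and 4 of each Th2 group were almost as alike as counting noise allows, with a mean chi-square per gene of 1.51 for WT and 1.34 for TDG iKO where every other Th2 pair gave 21.3 to 218. They were therefore counted as 1 sample, which left 3 samples in each Th2 group. No label ties the other replicates to separate animals throughout, so the p-values measure the spread between these samples. The identity of the cells was checked with marker genes. All 7 T cell markers were counted in the Th2 groups, where they summed to 1740 to 2410 CPM against 9.29 to 31.2 CPM in BMDMs, and the 7 macrophage markers present in the files summed to 24300 to 31600 CPM in BMDMs against 8.09 to 48.3 CPM in Th2 cells, where Csf1r was at 0. The WT BMDM library of replicate 2 at 0 h in the Tdg cohort had the fewest counts and stood apart, as described below.

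Short sequences near the start sites were examined because genes of the long-patch branch are also genes of DNA replication, whose transcription E2F factors are known to drive. RefSeq promoters (GRCm38.p6, from 250 bases before to 50 bases after the start) were present for 32 of the 38 genes. The letters TTTGGCGC, TTTCGCGC or TTTCCCGC, read on both strands, occurred in 5 of 12 long-patch genes (41.7%), in 1 of 10 glycosylase genes (10%) and in none of the remaining 10 genes, against 2.12% of 27025 genes in the table. CCAAT, read on both strands, occurred in 53.1% of the repair genes and 41.1% of all genes. The matches are descriptions of these letters, not of bound sites. The 30 bases around each match are printed on the strand of the gene, with the E2F letters or their reverse complement in capitals, to show where the long-patch genes share them.
Nthl1, chr17:24632539-24632568, plus strand: ccgcgcgcgccTTTCGCGCgcaggtcctcc
Lig1, chr7:13278841-13278870, plus strand: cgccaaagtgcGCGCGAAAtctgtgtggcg
Pold1, chr7:44548766-44548795, minus strand: cacggcggcgtatcttgtgGCGGGAAAagc
Pold3, chr7:100121467-100121496, minus strand: gagcgaagctgTTTCCCGCcggcgggagct
Pole2, chr12:69228162-69228191, minus strand: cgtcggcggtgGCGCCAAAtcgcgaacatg
Rfc3, chr5:151651195-151651224, minus strand: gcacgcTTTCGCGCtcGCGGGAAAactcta

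Pcna, which encodes the sliding clamp and was called in more of the comparisons below than any other repair gene, had none of the E2F letters in its 300 bases. Its 250 bases before the start (chr2:132253181-132253430, minus strand, GRCm38.p6) held 1 CCAAT, on the opposite strand and therefore read as ATTGG in capitals.
Pcna: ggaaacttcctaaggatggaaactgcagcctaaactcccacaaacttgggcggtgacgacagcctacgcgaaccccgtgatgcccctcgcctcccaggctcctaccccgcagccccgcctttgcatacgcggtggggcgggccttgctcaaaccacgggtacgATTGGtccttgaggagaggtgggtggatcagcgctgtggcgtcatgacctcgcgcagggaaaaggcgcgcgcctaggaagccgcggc

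The targeted genes were examined first. Tdg lies on chromosome 10 from 82092573 to 82113544 (mm9). The 4 WT Th2 libraries held 7, 2, 3 and 7 read pairs of Tdg, and those labelled TDG iKO held 2, 1, 4 and 1. In the 16 BMDM libraries it had 3 counts or fewer. In Th2 cells the estimate for Tdg was -1.33 on the log2 scale (95% interval -3.55 to 0.89) and did not pass the test. The TDG iKO Th2 samples were at 0.102 to 0.138 CPM and the WT Th2 samples at 0.167 to 0.651 CPM. In BMDMs Tdg was at 0 in TDG iKO at both times, and also in WT of the Tet cohort at 0 h. With so few counts these values could not check the TDG iKO label. When the Tdg transcript was cut into overlapping windows of 50 bases, 79% of them were also found elsewhere in the genome, and read pairs with several alignments were not counted. Neither Tet2 nor Tet3 had a lower level under the TET iTKO label. At 0 h Tet2 was at 57.7 and 55.2 CPM in TET iTKO and at 39.6 and 47.1 CPM in WT, and Tet3 was at 120 and 111 CPM against 108 and 104 CPM. Tet1 was at 0.482 CPM or below in all 4 of these libraries. Counts over whole genes do not resolve a deleted exon, so this label could not be checked either.

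Copies elsewhere in the genome and neighbouring genes limit a few other values. Windows that also occurred elsewhere made up 72.5% of the transcript of Hmgb1, 54.8% of Pcna and 20.7% of Rfc5, and under 4% of every other repair gene apart from Tdg. Genes on the opposite strand overlapped 78.8% of the exonic bases of Fen1 (Gm10143), 61.7% of Apex1 (Tmem55b), 35.7% of Mpg (Nprl3) and 25.1% of Lig3 (Rffl). The strand setting of the counting is not given in the sources used here, so the values of these genes are uncertain. Pold4, the smallest subunit of polymerase delta, had 16 counts in TDG iKO Th2 replicate 2 and at most 6 in any other library, although none of its windows occurred elsewhere.

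**Figure D1:**
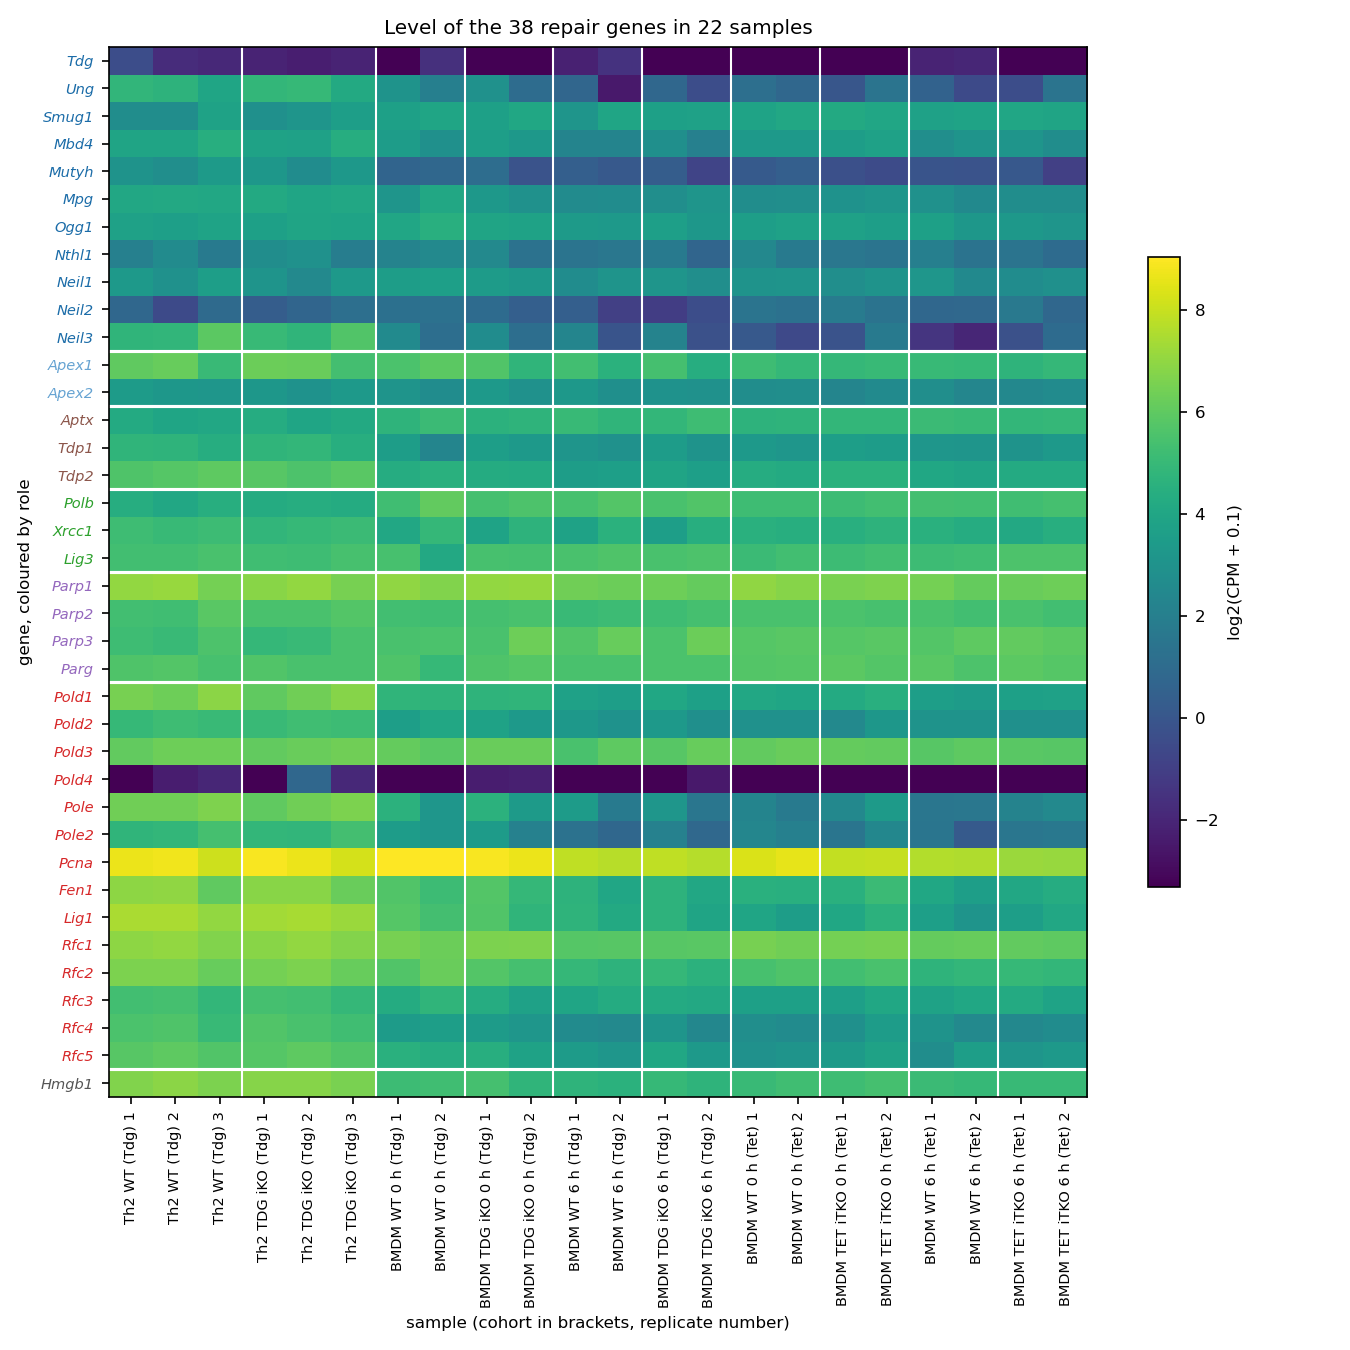
Level of each of the 38 repair genes (rows, coloured by role) in the 22 samples (columns, by group and replicate), as log2 of CPM plus 0.1. Tdg and Pold4 are near the bottom of the scale throughout, Pcna is near the top, and Pole, Lig1, Neil3 and Ung are brighter in the 6 Th2 samples than in the 16 BMDM samples.

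The genes of the pathway were expressed at very different levels. Per kilobase of exon, Pcna had the highest mean of the 38 genes in WT Th2 cells (155 CPM per kb), in WT BMDMs of the Tdg cohort at 0 h (218 CPM per kb) and in those of the Tet cohort (148 CPM per kb). In Th2 cells it was followed by Rfc2 (57.9 CPM per kb), a subunit of the clamp loader, Fen1 (43.4 CPM per kb) and Apex1 (39.8 CPM per kb), the main AP endonuclease. Fen1 (105 ± 34.7 CPM, SD, n = 3) and Apex1 (56.5 ± 20.2 CPM, SD, n = 3) varied too much between samples to be ordered per kilobase. In WT BMDMs of the Tdg cohort at 0 h Polb, the gap-filling polymerase, was in the second place (42.3 CPM per kb), close to Rfc2 (41.3 CPM per kb). Polb was at 37.9 and 66 CPM there, the higher value in the library with the fewest counts, so its place is uncertain. In those of the Tet cohort Polb was at rank 4. By this measure the glycosylases stood lower, at rank 22 and below among the 38 genes in Th2 cells and at rank 14 and below in BMDMs of the Tdg cohort. The length used joins all annotated exons of a gene. For Neil3 this was 5296 bases, against 2253 bases in its longest protein-coding transcript, so the ranks depend on this choice. Among the 10 glycosylases other than Tdg, the level in WT Th2 cells ran from 0.712 CPM per kb for Neil2 to 8.97 CPM per kb for Ung, which removes uracil. Without division by length, Neil3 was above Ung in these cells, at a mean of 38.4 CPM against 23 CPM. In WT BMDMs of the Tet cohort it ran from 0.146 CPM per kb for Neil3 to 6.22 CPM per kb for Ogg1, which removes 8-oxoguanine.

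WT Th2 cells and unstimulated WT BMDMs of the Tdg cohort differed in 16 of the 37 repair genes tested (43.2%, against 45.8% of all genes tested). Of these, 14 were higher in Th2 cells (37.8%, against 23.3% of all genes) and 2 were lower (5.41%, against 22.5%). The median log2 fold change was 0.57 over the repair genes and 0.11 over all genes. The share called was thus close to the background, and the genes called lay mostly on the Th2 side. The sum of 17 genes of dividing cells, such as Mki67 and Top2a, was 4330 to 4690 CPM in the Th2 samples and 492 to 1070 CPM in the BMDM samples. The part of cell division in the values below was not tested.

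In the long-patch branch 8 of 13 genes were higher in Th2 cells (61.5%, against 23.3% of all genes). None was lower, against 22.5% of all genes, and the median log2 fold change was 1.33. Pole (chromosome 5, 110715325 to 110766493, mm9), the catalytic subunit of polymerase epsilon, was at 82.3, 81.6 and 101 CPM in WT Th2 cells and at 24.6 and 8.86 CPM in WT BMDMs. The groups did not overlap, and the difference of 2.43 on the log2 scale (SE 0.48, adjusted p 2.75e-06 by DESeq2) was larger than the spread within either cell type. Lig1 (chromosome 7, 13862632 to 13896782), the ligase that seals long patches and Okazaki fragments, was at 177, 177 and 131 CPM in Th2 cells and at 55.3 and 40.1 CPM in BMDMs, a difference of 1.82 on the log2 scale (SE 0.36, adjusted p 1.99e-06 by DESeq2). The difference was again larger than the spread of either group. Rfc4, a clamp loader subunit, was at 45.9, 49.5 and 32.3 CPM against 10.8 and 12.1 CPM (log2 fold change 1.96, SE 0.39). Pold1, the catalytic subunit of polymerase delta, was at 91.6, 78.7 and 119 CPM against 26.7 and 26.1 CPM (1.92, SE 0.32). Neither overlapped between the cell types, and further increases were called for Pole2 (1.71), Rfc5 (1.45), Fen1 (1.33) and Pold2 (1.27). The call of Fen1 was lost without BMDM replicate 2 (0.99, adjusted p 0.147 by DESeq2), Th2 replicate 1 (1.23, 0.0718) or Th2 replicate 2 (1.17, 0.0692). Pold3, Rfc1, Rfc2 and Rfc3 had positive estimates that did not pass the test. Pcna alone among the long-patch genes tested had a negative estimate. It was at 403, 441 and 272 CPM in Th2 cells and at 526 and 522 CPM in BMDMs, and its log2 fold change of -0.43 (95% interval -1.13 to 0.27) did not pass the test. In WT BMDMs of the Tet cohort at 0 h it was at 325 and 383 CPM, within the range of the Th2 samples. Pairs with several alignments, which were not counted, made up 30.9% to 32.2% of pairs in Th2 libraries and 16.6% to 25.8% in BMDM libraries.

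The glycosylases and the end-processing enzymes were divided. Neil3 (chromosome 8, 54672221 to 54724419), a glycosylase known from dividing cells, had the largest fold change of the 38 genes. It was at 27.3, 27.7 and 60.1 CPM in Th2 cells and at 6.02 and 2.1 CPM in BMDMs, a difference of 3.22 on the log2 scale (SE 0.59, adjusted p 3.64e-07 by DESeq2). The lowest Th2 sample lay well above the highest BMDM sample. Mutyh, which removes adenine paired with 8-oxoguanine, was at 8.19, 6.85 and 10.7 CPM against 1.48 and 1.63 CPM (log2 fold change 2.53), and Ung was at 28.1, 25.7 and 15.2 CPM against 8.19 and 3.96 CPM (1.95). Tdp1 and Tdp2, which free DNA ends from trapped topoisomerases, were higher by 1.58 and 1.41, and Hmgb1 was higher by 1.61. Tdp1 was not called without BMDM replicate 2 (1.01, adjusted p 0.0668 by DESeq2). The other 8 glycosylases did not pass the test, among them Smug1 (-0.59, 95% interval -1.57 to 0.40) and Mbd4 (0.90, 0.06 to 1.73, adjusted p 0.0718 by DESeq2), both of which can act on the products of cytosine or 5-methylcytosine deamination.

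The short-patch polymerase went the other way. Polb (chromosome 8, 23738591 to 23763909) was at 20.7, 16.7 and 21.3 CPM in Th2 cells and at 37.9 and 66 CPM in BMDMs, a difference of -1.34 on the log2 scale (SE 0.38, adjusted p 0.00161 by DESeq2). Each Th2 sample lay below each BMDM sample of every group. Aptx, which repairs abortive ligation ends, was lower, at -0.79 on the log2 scale (adjusted p 0.044 by DESeq2). Its call was lost with edgeR (adjusted p 0.0598) and without any 1 of the samples (DESeq2 adjusted p 0.0603 to 0.264). Xrcc1 and Lig3, the partners of Polb, and the 4 poly(ADP-ribose) genes did not pass, with log2 fold changes of -0.16 for Parp3 to 0.65 for Xrcc1.

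The size of these differences depended on the macrophages used. With the 0 h WT libraries of the Tet cohort in place of those of the Tdg cohort, 22 of 37 repair genes were called (59.5%, against 58.8% of 13864 genes), among them Tdg at its few counts, and the log2 fold change was 5.70 for Neil3, 4.53 for Pole, 3.65 for Lig1 and 3.66 for Ung. It was -0.85 for Polb. The dividing-cell genes summed to 231 and 251 CPM in these libraries. The Th2 and BMDM libraries were prepared from different cells in different cultures, so cell type and library preparation cannot be told apart.

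**Figure D2:**
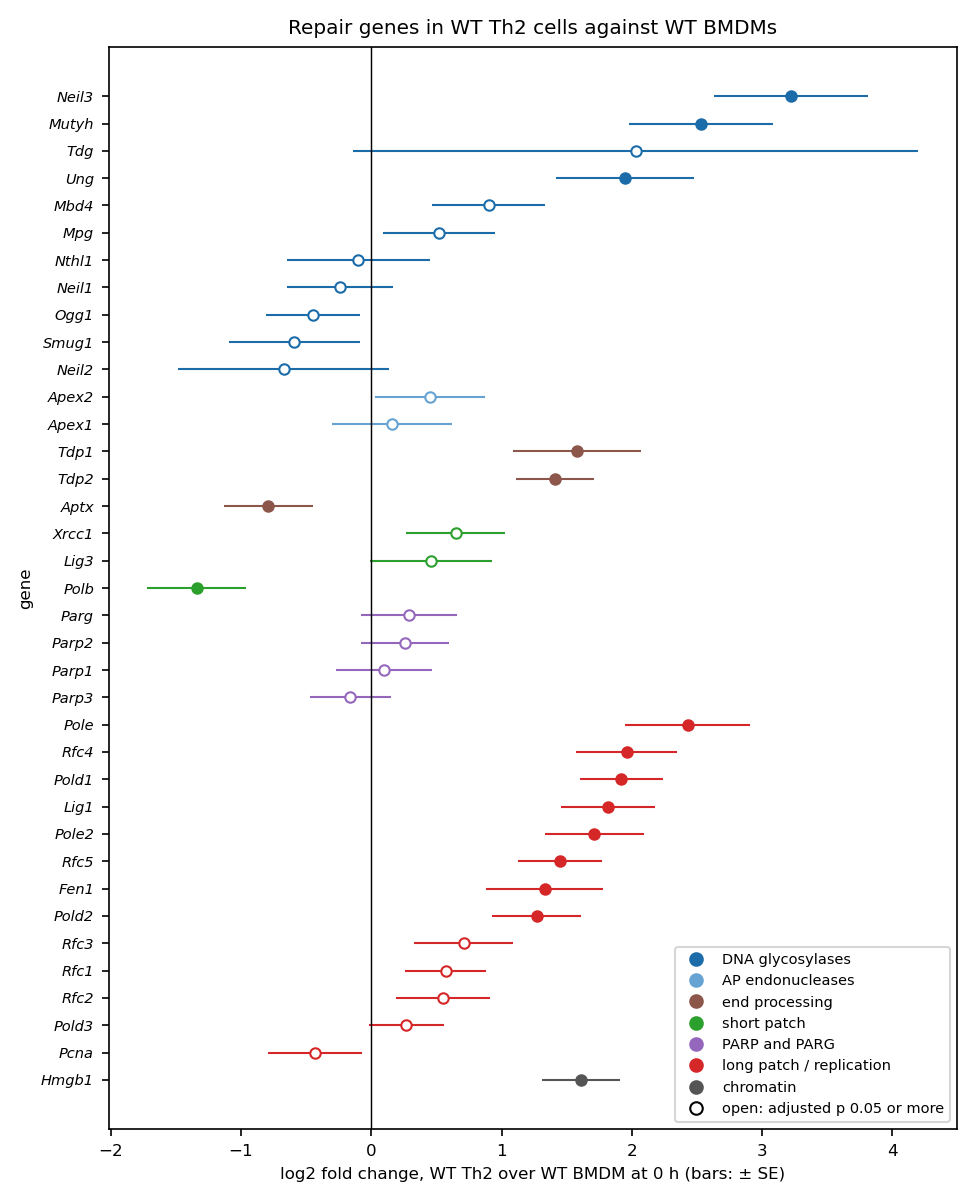
Log2 fold change of each repair gene in WT Th2 cells (n = 3) over WT BMDMs of the Tdg cohort at 0 h (n = 2), with SE bars, coloured by role and filled where the DESeq2 adjusted p was under 0.05. The 8 filled long-patch genes lie between 1.27 and 2.43, Polb and Aptx are the filled points to the left of 0, and Pcna is an open point at -0.43.

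TDG iKO cells showed no called change in the pathway. In Th2 cells 0 of 38 repair genes passed the test (0% of 15826 genes tested by DESeq2, 77 of them at an unadjusted p under 0.05, and 0 called by edgeR), and none of the 38 reached an unadjusted p under 0.05 with either tool. With the replicate number as a block 15 genes were called and 0 repair genes. The median log2 fold change was 0 over the repair genes and -0.01 over all genes. The 3 smallest unadjusted p-values belonged to Pold4 and Tdg, both with few counts, and to Nthl1, a glycosylase for oxidised pyrimidines. Nthl1 was at 6.67, 7.58 and 3.7 CPM in TDG iKO and at 4.09, 6.16 and 3.33 CPM in WT. The groups overlapped, with a difference of 0.40 on the log2 scale (95% interval -0.45 to 1.25, unadjusted p 0.358 in the DESeq2 fit). Glycosylases that share substrates with TDG were close to WT, with 0.05 for Smug1 (-0.72 to 0.83), -0.08 for Mbd4 (-0.63 to 0.46) and 0.19 for Ung (-0.54 to 0.91). Among the 35 repair genes whose mean normalised count reached 50, the log2 fold changes lay between -0.27 and 0.40, with a median SE of 0.25.

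In BMDMs of the Tdg cohort 0 of 38 repair genes were called at 0 h (0% of 15026 genes, 265 at an unadjusted p under 0.05, and 0 called by edgeR) and 0 of 38 at 6 h (0% of 15026 genes, 34 at an unadjusted p under 0.05, and 0 called by edgeR). The smallest p-values at 0 h were those of Rfc3, Mpg and Rfc2, with log2 fold changes of -0.54, -0.60 and -0.43. Mpg, the glycosylase for alkylated bases, was at 9.5 and 7.5 CPM in TDG iKO and at 8.59 and 16.8 CPM in WT. The high value was that of the WT library with the fewest counts, and the groups overlapped. Without WT replicate 1, so that this library stood alone for WT, 1177 genes and 1 repair gene, Lig3, were called. At 6 h the smallest p-values were those of Rfc5, Pold3 and Parp2, with 0.37 (95% interval -0.48 to 1.22), 0.25 (-0.35 to 0.84) and 0.20 (-0.33 to 0.73). The median SE was 0.41 at both times, so a change of that size on the log2 scale could not have passed the test for most of these genes.

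TET iTKO BMDMs had less Pcna. At 0 h Pcna (chromosome 2, 132074898 to 132079050, mm9) was at 239 and 244 CPM in TET iTKO and at 325 and 383 CPM in WT. Both TET iTKO libraries lay below both WT libraries, with a difference of -0.56 on the log2 scale (SE 0.11, adjusted p 3.62e-05 by DESeq2, edgeR adjusted p 0.00813). At 6 h it was at 144 and 141 CPM against 194 and 189 CPM, a difference of -0.44 on the log2 scale (SE 0.11, adjusted p 0.00342 by DESeq2, edgeR adjusted p 0.0279). The groups were again apart. Without WT replicate 1 or TET iTKO replicate 2 at 6 h the change was -0.43 and -0.41 and lost its call, with DESeq2 adjusted p-values of 0.0594 and 0.106. Pcna was the only repair gene called among 36 tested at either time, a share of 2.78% against 7.5% of all genes at 0 h and 6.58% at 6 h, and among the decreases alone 3.12% and 3.34% of all genes. As given above, 54.8% of the Pcna windows also occurred elsewhere in the genome.

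No other gene of the long-patch branch passed the test. The median log2 fold change of the long-patch genes was 0.15 at 0 h and 0.09 at 6 h. Pole was at 5.3 and 10.4 CPM in TET iTKO and at 4.71 and 3.3 CPM in WT at 0 h, a difference of 0.98 on the log2 scale (95% interval 0.19 to 1.78, adjusted p 0.139 by DESeq2). Lig1 was at 16.3 and 24.1 CPM against 15.1 and 11.8 CPM, a difference of 0.59 on the log2 scale (0.04 to 1.13, adjusted p 0.235 by DESeq2). Neither passed the test, and in both the higher TET iTKO value was that of replicate 2. Genes of dividing cells were higher in TET iTKO. DESeq2 called 7 of 17 at 0 h and 5 of 17 at 6 h, and none lower, where edgeR called 3 and 1. The DESeq2 shares were 41.2% and 29.4%, against 4.38% and 3.24% of all genes upwards. The sum of the 17 genes was 294 and 559 CPM in TET iTKO and 231 and 251 CPM in WT at 0 h, with replicate 2 again the highest. Without TET iTKO replicate 1 at 0 h Pole was called too. The sum of 4 B cell markers was 18 CPM in TET iTKO replicate 2 at 0 h, 3.93 CPM in replicate 1, and 1.42 to 1.83 CPM in WT, and that of 5 neutrophil markers was 69.5 to 143 CPM in TET iTKO and 30.5 to 57.2 CPM in WT. The part of these cells in the repair gene values was not tested.

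The rest of the pathway in TET iTKO cells did not pass the test. At 6 h Neil3 was at 0.744 and 1.89 CPM against 0.276 and 0.147 CPM in WT (unadjusted p 0.00972 in the DESeq2 fit, adjusted p 0.11), and Lig3 was at 48.5 and 48.5 CPM against 36 and 37.6 CPM (log2 fold change 0.38, adjusted p 0.139 by DESeq2). The 10 glycosylases tested had a median of 0.05 at 0 h and -0.03 at 6 h. Among the 30 repair genes whose mean normalised count reached 50 the median SE was 0.21 at both times, lower than in the Tdg cohort.

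**Figure D3:**
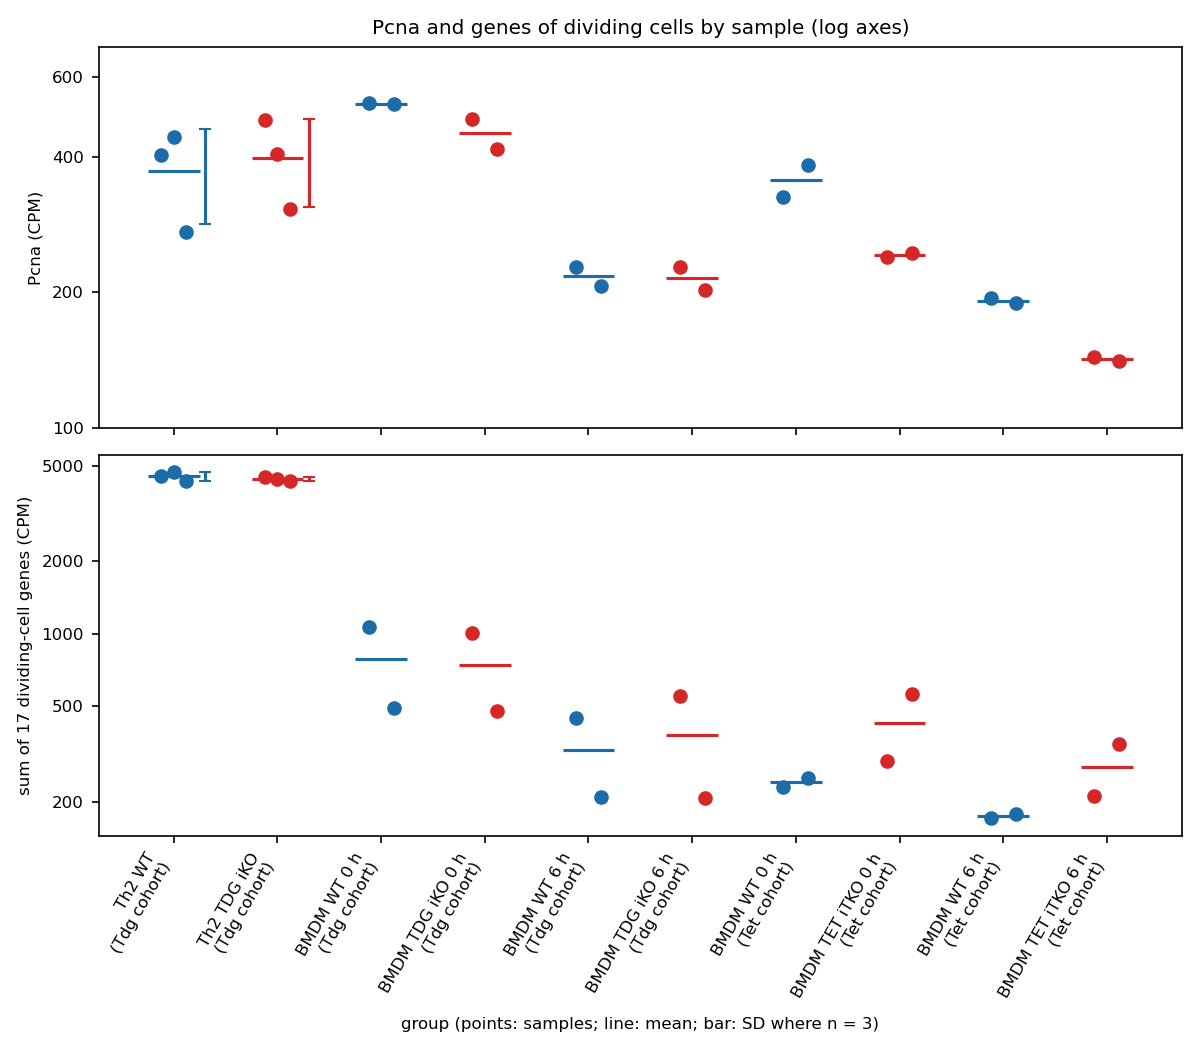
Pcna (top, CPM) and the sum of 17 dividing-cell genes (bottom, CPM) in each sample by group, on log axes, with WT in blue and knockouts in red, group means as lines and SD bars where n = 3. Pcna is at 239 and 244 CPM in TET iTKO at 0 h, below both WT libraries, whereas both sums are above WT there, and Pcna is lower at 6 h than at 0 h in every genotype.

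KLA lowered Pcna in every genotype. In the Tdg cohort it went from 526 and 522 CPM to 228 and 206 CPM in WT and from 485 and 416 CPM to 228 and 202 CPM in TDG iKO. In the Tet cohort it went from 325 and 383 CPM to 194 and 189 CPM in WT and from 239 and 244 CPM to 144 and 141 CPM in TET iTKO. All stimulated libraries of a genotype lay below its unstimulated libraries. The log2 fold changes were -1.28 (SE 0.25, adjusted p 1.17e-05 by DESeq2), -1.05 (SE 0.25, 7.14e-04), -0.89 (SE 0.11, 4.19e-14) and -0.77 (SE 0.11, 1.32e-10) in that order, and edgeR called each of them too. In TDG iKO the call was lost without replicate 1 at 0 h (-0.92, adjusted p 0.113 by DESeq2) or without replicate 2 at 6 h (-0.96, adjusted p 0.132 by DESeq2), while in the other genotypes it was kept without any 1 of their libraries.

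With all libraries and no filter on low counts DESeq2 called between 3 and 7 repair genes in a genotype, and each call was a decrease. In WT of the Tdg cohort 4 of 36 were called (11.1%, against 8.6% of all genes in either direction and 3.32% downwards), namely Pcna, Rfc2, Pole2 and Pold1. In TDG iKO they were 3 of 36, Pcna, Parp1 and Rfc1 (8.33%, against 7.08% and 2.81%). In WT of the Tet cohort they were 4 of 36, Pcna, Rfc2, Parp1 and Fen1 (11.1%, against 24.1% and 11.1%). In TET iTKO they were 7 of 36, Pcna, Rfc1, Pold1, Rfc2, Fen1, Mbd4 and Parp1 (19.4%, against 24.4% and 11.6%). The share in the WT cells of the Tet cohort was therefore at the background of decreases. Of the WT calls, Pcna and Rfc2 were called in both cohorts (50% of each list of 4), which share no library. With edgeR the counts were 1, 1, 7 and 8 in the same order, and Pcna was the 1 gene it called in both genotypes of the Tdg cohort. Without 1 library the other calls were less stable. Rfc2 and Parp1 in WT of the Tet cohort and Rfc1 in TET iTKO were called without any 1 of their libraries, whereas in WT of the Tdg cohort only Pcna was called without replicate 2 at 6 h, and in TET iTKO only Pcna and Rfc1 without replicate 2 at 0 h or at 6 h. In the Tet cohort edgeR also called 2 genes upwards, Aptx in WT and Lig3 in TET iTKO, and DESeq2 with a filter on low counts called Lig3 too, which made 8 genes in TET iTKO. In the Tet cohort the names of the deposited tables gave the 0 h and 6 h libraries of a replicate a shared number, taken here as that of a mouse, although no label says so. With that number as a block Pole2 was called as well in WT, while Mbd4 lost its call in TET iTKO (adjusted p 0.0542 by DESeq2).

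The long-patch branch had a negative median in all 4 comparisons. Its median log2 fold change was -1.09 in WT and -0.81 in TDG iKO of the Tdg cohort, and -0.38 in WT and -0.49 in TET iTKO of the Tet cohort, against medians of -0.03 to 0 over all genes. Rfc2 (chromosome 5, 135058560 to 135074198) was at 51.1 and 74.2 CPM at 0 h and at 29.5 and 25.4 CPM at 6 h in WT of the Tdg cohort (log2 fold change -1.20, SE 0.35, adjusted p 0.00922 by DESeq2). In WT of the Tet cohort it was at 44.1 and 50 CPM and at 26.4 and 29 CPM (-0.77, SE 0.16, 2.66e-05 by DESeq2). The times did not overlap in either cohort. Pole2, a subunit of polymerase epsilon, fell from 11.4 and 8.86 CPM to 2.45 and 1.65 CPM in WT of the Tdg cohort (log2 fold change -2.34, SE 0.68, adjusted p 0.0108 by DESeq2). Rfc3 stood out in its branch, with -0.45, 0.14, 0.21 and 0.18 in the order above and no call. It was negative in 1 of the 4 comparisons, Pold2, Rfc4 and Rfc5 in 3, and the other 9 long-patch genes tested in all 4. The dividing-cell genes had medians of -0.97, -0.54, -0.36 and -0.51, with 2, 2, 2 and 4 of 17 called by DESeq2, all lower, Mcm2 and Mcm6 in each comparison. The shares were 11.8%, 11.8%, 11.8% and 23.5%, against 3.32%, 2.81%, 11.1% and 11.6% of all genes downwards. In WT of the Tet cohort the share was thus close to the background of decreases. With edgeR 0, 0, 3 and 3 were called. The part of cell division in the fall of the repair genes was not tested.

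Outside this branch Parp1, the main poly(ADP-ribose) polymerase, was the gene called most often. It went from 125 and 110 CPM to 86.6 and 68.6 CPM in WT of the Tet cohort (log2 fold change -0.60, SE 0.14, adjusted p 1.63e-04 by DESeq2) and from 130 and 137 CPM to 79.4 and 69.6 CPM in TDG iKO (-0.82, SE 0.26, adjusted p 0.0254 by DESeq2). In both genotypes the 6 h libraries lay below the 0 h libraries. It was also called in TET iTKO (-0.37, adjusted p 0.0409 by DESeq2). The WT call was kept without any 1 of its libraries. The TDG iKO call was lost with edgeR (adjusted p 0.0996) and without any 1 of its libraries (DESeq2 adjusted p 0.116 to 0.529), and so was the TET iTKO call without any 1 of its libraries (DESeq2 adjusted p 0.125 to 0.3). Mbd4, a glycosylase for T and U opposite G, was called only with TET iTKO cells among the 4 comparisons, at 11.8 and 13.4 CPM at 0 h and 8.63 and 6.49 CPM at 6 h (-0.76, SE 0.28, adjusted p 0.0296 by DESeq2). Its log2 fold change was -1.02, -0.95 and -0.42 in the other three, and no difference between genotypes passed the test. Of the 10 glycosylases tested, 9 had a negative estimate in all 4 comparisons. Of the short-patch genes, Xrcc1 was negative in all 4 without a call. Polb had estimates of -0.11, 0.12, 0.11 and 0.10, and Lig3 of 0.60, 0.13, 0.00 and 0.39, with no call by DESeq2 as reported. Lig3 was called upwards in TET iTKO with edgeR or the filter on low counts, and in WT of the Tdg cohort without replicate 1 at 0 h. The 0.60 of Lig3 in WT of the Tdg cohort set 44.7 and 49.5 CPM at 6 h against 43.8 and 17.5 CPM at 0 h, the last in the library with the fewest counts. Of the 36 repair genes tested in each, 25 had negative estimates throughout (69.4%, against 30.4% of 11239 genes). The 2 genotypes of a cohort share one fit but no library.

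**Figure D4:**
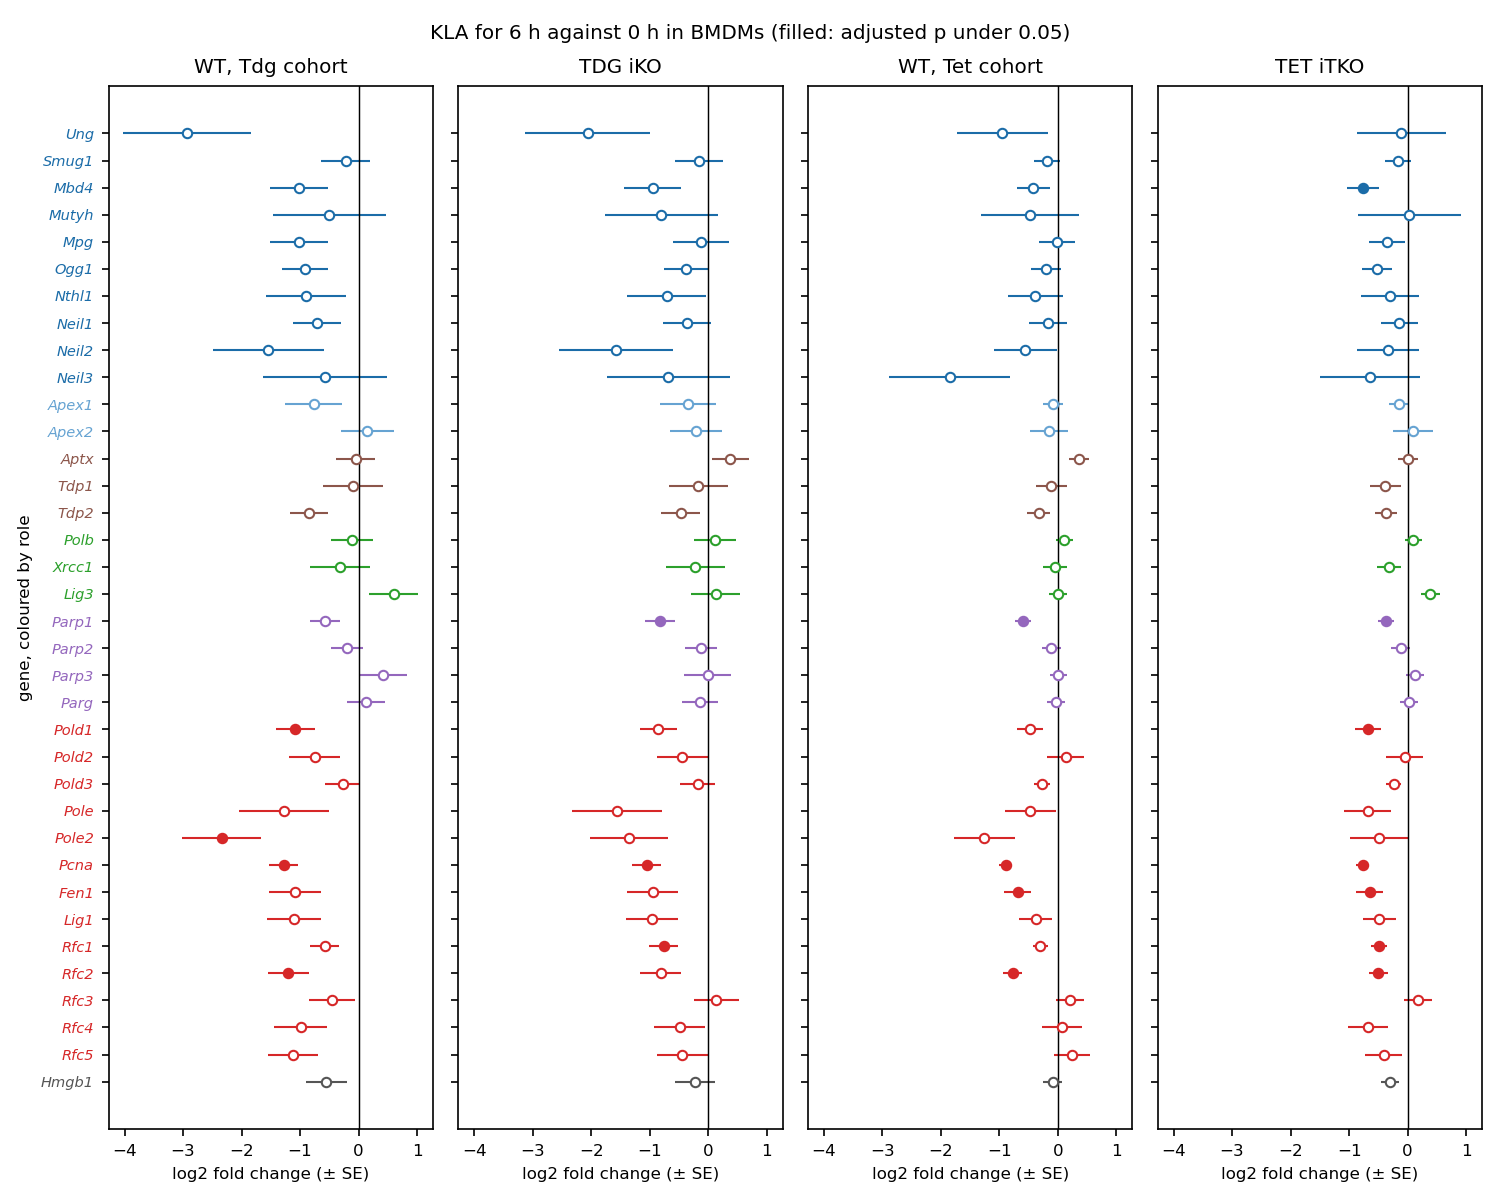
Log2 fold change of each repair gene at 6 h of KLA over 0 h in the 4 genotypes (n = 2 against 2 in each panel), with SE bars, coloured by role and filled where the DESeq2 adjusted p was under 0.05. Pcna is filled in all 4 panels at -1.28 to -0.77, every filled point lies to the left of 0, and Polb and Lig3 lie near or to the right of 0.

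No repair gene passed the test for a KLA response that differed by genotype. Between TDG iKO and WT 0 of 38 repair genes passed the test of the difference (0% of 15026 genes, 37 at an unadjusted p under 0.05, and 0 called by edgeR). The smallest p-values were those of Mpg (0.89, 95% interval -0.45 to 2.23), Rfc5 (0.68, -0.51 to 1.87) and Rfc3 (0.60, -0.49 to 1.68). Between TET iTKO and WT 0 of 36 passed (0.426% of 12200 genes, and 1 gene called by edgeR), with Lig3 (0.38, -0.05 to 0.82), Rfc4 (-0.75, -1.69 to 0.18) and Aptx (-0.36, -0.82 to 0.10) first. For Pcna the difference was 0.23 (-0.45 to 0.92) between TDG iKO and WT and 0.12 (-0.19 to 0.43) between TET iTKO and WT. These intervals are wide for most genes, with a median SE of 0.58 in the Tdg cohort and 0.30 in the Tet cohort.

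Transcript length moved with part of these values. In the WT library of replicate 2 at 0 h in the Tdg cohort, long transcripts were low and short ones high. Of the 14 repair genes with at least 4 kb of exon, 10 were below all 3 other unstimulated libraries of the cohort and 1 was above, whereas of the 22 shorter genes 2 were below and 13 above. Lig3 (7.28 kb) was at 17.5 CPM against a mean of 43.2 CPM in the other 3 libraries, and Polb (1.23 kb) was at 66 CPM against 42.5 CPM. Across the 36 repair genes the Spearman correlation between the log2 ratio and exonic length was -0.67, and across 8888 genes it was -0.46, as a description over genes of 1 library. In the other 15 BMDM libraries it lay between -0.24 and 0.48 across genes. The 0.48 was that of TDG iKO replicate 2 at 0 h, in the opposite direction (0.27 across the 36 repair genes). These libraries lie on opposite sides of the 0 h comparison of TDG iKO with WT. The values with and without the WT library of replicate 2 at 0 h therefore matter for the WT of the Tdg cohort. Without it, the Th2 comparison called 14 repair genes in place of 16, with 1.79 for Pole and 2.61 for Neil3, and the KLA comparison in WT called Pcna and Pold1.

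**Figure D5:**
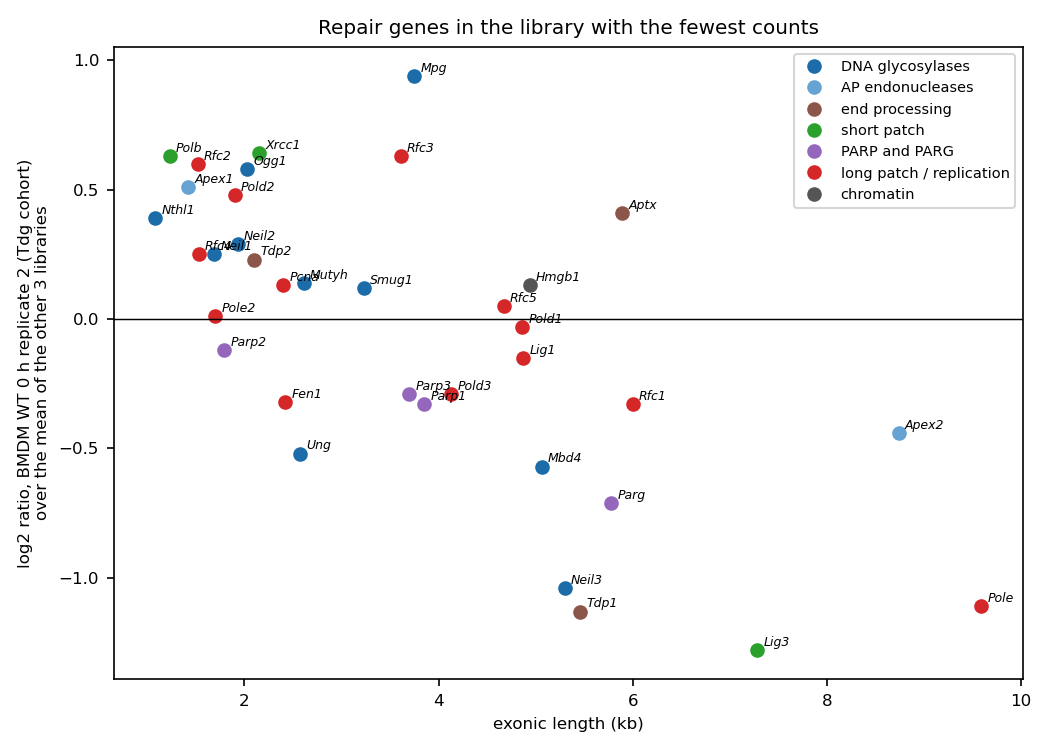
Log2 ratio of each of 36 repair genes in the WT BMDM library of replicate 2 at 0 h (Tdg cohort) over the mean of the other 3 unstimulated libraries of that cohort, each CPM plus 0.5, against exonic length in kb, coloured by role. Short genes such as Polb lie above 0 and long genes such as Lig3, Pole and Tdp1 lie below -1.

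Replicates also differed together across genotypes, in repair genes and over all genes. Among Th2 samples 15 of the 38 repair genes were higher in replicates 1 and 2 of both genotypes than in replicate 3 of either. Another 14 were lower. Over 10825 genes the shares were 30.1% and 40.8%, so this split was common to the libraries and not particular to the pathway. Pcna was at 403 to 481 CPM in replicates 1 and 2 and at 272 and 306 CPM in replicate 3, and Fen1, Apex1, Ung, Lig1 and Rfc1 to Rfc5 followed it. Neil3 was at 26.8 to 32.2 CPM in replicates 1 and 2 and at 60.1 and 50.7 CPM in replicate 3, and Pold1, Pole, Pole2, Mbd4 and Mutyh followed that order. Genes of the same branch thus lay on both sides. In the Tdg cohort of BMDMs 9 of 36 repair genes were higher in both replicate 1 libraries than in both replicate 2 libraries at 0 h and again at 6 h (25%, against 15.7% of 10800 genes). They were Ung, Neil3, Apex2, Tdp1, Pole, Pole2, Fen1, Lig1 and Rfc5. Pole was at 24.6 and 24.2 CPM in replicate 1 and at 8.86 and 10.5 CPM in replicate 2 at 0 h, next to dividing-cell sums of 1070 and 1010 CPM and of 492 and 475 CPM. Smug1, Polb, Xrcc1 and Parp3 were lower in replicate 1 at both times (4 of 36, 11.1%, against 17.3% of genes). The 5 neutrophil markers moved with the same split. Their sum was 161 and 482 CPM in replicate 1 and 43.1 and 32.8 CPM in replicate 2 of WT and TDG iKO at 0 h, and 209 and 480 CPM against 31.4 and 35.6 CPM at 6 h. The part of these cells in the split of the repair genes was not tested.

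Other repair pathways gave a frame for these counts. Between WT Th2 cells and WT BMDMs, 8 of 16 accessory genes of base excision repair were called (7 higher), 5 of 8 mismatch repair genes (5 higher), 3 of 14 nucleotide excision genes (3 higher) and 14 of 17 genes for breaks of both strands (11 higher). Their medians were 0.77, 1.94, 0.21 and 1.38. The shares called were 50%, 62.5%, 21.4% and 82.4% in the same order, against 45.8% of all genes. The shares higher were 43.8%, 62.5%, 21.4% and 64.7%, against 23.3% of all genes. The share of accessory genes called was thus close to the background, and that of nucleotide excision genes lay below it. In the 3 TDG iKO comparisons none of these genes was called. In TET iTKO against WT the calls included Hmgn1 (-0.52) at 0 h and Gadd45a (0.78) at 6 h. With KLA Rpa1, a subunit of the protein that coats single-stranded DNA, fell in WT of the Tet cohort (-0.46) and in TET iTKO (-0.43), while Rbbp8, which acts in end resection, rose in all 4 comparisons by 0.78 to 1.13. In TDG iKO edgeR called 0 of the 17 genes for breaks of both strands, so the DESeq2 call of Rbbp8 was lost there.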

How the data were processed

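Polyadenylated RNA of 24 libraries was sequenced as directional paired-end reads, aligned by the authors to mm9 with HISAT2 and counted with HTSeq-count. The deposited tables give raw counts for each gene symbol, with no normalization. The annotation, the strand setting and the tool versions apart from DESeq2 1.30.0 are not given in the sources used here. The 5 tallies of unassigned pairs, 32.8% to 51.6% of all pairs, were left out.

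Groups came from the labels. The genes and lists were chosen with earlier results of these data known. Comparisons used DESeq2 1.42.0 with its Wald test (R 4.3.3) with median-of-ratios factors and Benjamini-Hochberg adjustment over all genes at 0.05, as in the study's methods. Th2 replicates 3 and 4 were summed, and each BMDM cohort of 8 libraries was 1 fit. Alternatives were edgeR 4.0.16 (quasi-likelihood), TMM factors, at least 10 counts in at least 2 libraries, replicate blocks, only the libraries compared, other WT groups and leaving out each replicate. Intervals are 95% Wald intervals. Exonic lengths and shared 50-base windows came from NCBIM37 (mm9) with GENCODE vM1. Every gene past the threshold was named or, where none passed, the 3 with the smallest p. Values in every library were given for at most 6 genes by fold change with a mean count of at least 50, and for others chosen after their values were seen. The lists were members by role, BER accessory, mismatch, nucleotide excision and double-strand break repair, and dividing cells, with marker lists of T cells, macrophages, B cells, neutrophils and dendritic cells (at most 3.66 CPM in any library).

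Same-numbered Th2 samples deviated together (correlations 0.495, 0.688 and 0.908 over 10716 genes). Replicates 1 and 2 of both genotypes differed from replicate 3, so these correlations cannot tell pairing by number from that split. Values are from the fit without the number as a block. The counts with the block are given beside the TDG iKO comparison of Th2 cells, and for KLA in the Tdg cohort in the part on processing below. Between WT Th2 cells and WT BMDMs 15 repair genes were called with the block, and Aptx was not among them. The scripts were tested on simulated data. Values of some genes of the other repair lists are not reported here.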

Additional observations from a re-analysis of the deposited data

Results flagged for a closer look

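None of the repair genes tested, 38 in the Tdg cohort and 36 in the Tet cohort, passed the test for a KLA response that differed between genotypes. Among the 16 accessory genes of the pathway, Gadd45a passed it in the Tet cohort. GADD45A is a stress-induced protein that has been linked to TDG and to DNA demethylation. It was at 86.9 and 115 CPM at 0 h and at 77.2 and 73.2 CPM at 6 h in WT BMDMs of the Tet cohort, a difference of -0.43 on the log2 scale (SE 0.16, adjusted p 0.0306 by DESeq2). In TET iTKO it was at 88.4 and 76.7 CPM at 0 h and at 116 and 144 CPM at 6 h, a difference of 0.64 on the log2 scale (SE 0.16, adjusted p 3.51e-04 by DESeq2). The test of the difference gave 1.07 (SE 0.22, adjusted p 0.00118 by DESeq2). It was not called with edgeR (adjusted p 0.184) or with the shared number of the 0 h and 6 h libraries as a block (adjusted p 0.0809 by DESeq2). In the Tdg cohort the estimate was positive in WT (0.91, adjusted p 0.225 by DESeq2) and in TDG iKO (1.25, adjusted p 0.059 by DESeq2), so the WT libraries of the cohorts lay on opposite sides of 0.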

How the results depend on the processing

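The counts of repair genes called stayed within 1.5 times of the reported count except where given here. With edgeR 1 gene was called for KLA in WT of the Tdg cohort, 1 in TDG iKO and 7 in WT of the Tet cohort. A replicate block raised the KLA counts of the Tdg cohort to 9 (WT) and 7 (TDG iKO), and a nested one to 9 and 6. No label or name ties its 0 h and 6 h libraries to 1 mouse, though same-numbered ones deviated together (correlations 0.362 in WT and 0.794 in TDG iKO). The block changed no other count of repair genes by that much. Leaving out 1 library at a time gave 0 to 1 genes for TDG iKO at 0 h, 1 to 2 for TET iTKO at 0 h, 0 to 1 for TET iTKO at 6 h, and for KLA 1 to 6 in WT and 0 to 2 in TDG iKO of the Tdg cohort and 2 to 5 in TET iTKO. A group left with 1 library was assumed to vary like the others. The 6 h TDG iKO change of Rfc5, 0.37 with all libraries, ranged from -0.04 without TDG iKO replicate 1 to 0.70 without TDG iKO replicate 2. Of 573 alternatives for 51 named values, 512 kept direction and side of the threshold, 60 lost the call and 1 reversed. Over all genes, TDG iKO calls in Th2 cells were 0 as reported, 15 with the block, 2 with replicates 3 and 4 separate, 87 with both, and 46 with replicates 1 and 2 only, an alternative chosen after seeing the data. TDG iKO calls at 0 h were 4 with the block. KLA calls in the Tdg cohort went from 1001 and 824 to 413 and 346 with edgeR, 1809 and 1375 with the block, and 1822 and 1312 with the nested block. Calls for a KLA response that differed in TET iTKO went from 52 to 1, 90 and 225. TMM factors moved no median over all genes by more than 0.03. With 2 BMDM libraries a group, depth and replication limit what could be called. The causes of these changes were not tested.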

Other observations

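Gadd45b, the paralogue of Gadd45a, rose with KLA in both genotypes of the Tet cohort. Its level went from 21.6 and 31.6 CPM to 53.5 and 95.5 CPM in WT (log2 fold change 1.48, SE 0.24, DESeq2 adjusted p 5.17e-09) and from 24.4 and 24.7 CPM to 82.9 and 113 CPM in TET iTKO (1.99, SE 0.24, DESeq2 adjusted p 1.42e-15). The difference between the genotypes was 0.51 (95% interval -0.15 to 1.16) and did not pass the test. In the Tdg cohort it went from 40.8 and 73.9 CPM to 75.9 and 155 CPM in WT (DESeq2 adjusted p 0.269) and from 49.3 and 62.9 CPM to 80.6 and 202 CPM in TDG iKO (1.35, SE 0.52, DESeq2 adjusted p 0.105). Neither passed the test, although both 6 h libraries lay above both 0 h libraries, and with the replicate number as a block both did (DESeq2 adjusted p 0.00863 and 4.99e-04). In Th2 cells Gadd45b was at 33.3 to 44.9 CPM in replicates 1 and 2 of both genotypes and at 11.2 and 10.5 CPM in replicate 3.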
